A study of Saccharomyces cerevisiae S288C with 6 samples.

Results

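The genes that act on transfer RNA were followed in 2 groups in budding yeast labelled as lacking LTV1, the cytosolic aminoacyl-tRNA synthetases and the enzymes that chemically modify tRNA. The members, 21 synthetase genes and 30 genes of modifying enzymes, were chosen by name, with earlier results of these data known. All 51 were found among the 7126 rows of the deposited table. The mutant strain was EDS615, an S288C strain labelled ltv1∆/ltv1∆ (genotype ltv1-/ltv1-), with both copies of LTV1 deleted. Its control was the S288C strain EDS76, labelled wildtype. Each group had 3 libraries and no other treatment. Both strains were grown in YPD, a rich glucose medium, at 30 °C and collected in mid-exponential growth at an optical density of 0.5 to 0.6. Each genotype is represented by 1 strain. Whether the 3 libraries of a strain came from 3 cultures is not stated, so p-values measure only the spread between these libraries, which may be technical. Ltv1 helps to assemble the small ribosomal subunit, and the study concerns the damage that cells take without it.

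A tRNA becomes useful to the ribosome in steps. Methyltransferases, pseudouridine synthases, dihydrouridine synthases and other enzymes alter single bases, which stabilizes the fold of the tRNA and tunes how its anticodon reads codons. An aminoacyl-tRNA synthetase then attaches the matching amino acid. The synthetases fall into class I and class II, families with unrelated catalytic folds. In yeast the genes of ribosome assembly share short promoter motifs called PAC and RRPE, and amino acid starvation acts on many genes, including synthetase genes, through the activator Gcn4.

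The promoters shown here belong to the 3 genes of each group with the smallest p-values among those that passed the test described below, TRM2, SMM1 and DEG1 of the modifying enzymes and MES1, YHR020W and GLN4 of the synthetases. Each is the 300 bases before the annotated start codon, from the RefSeq R64 genome, written 5′ to 3′ on the strand of the gene. Capitals mark any match on either strand to GATGAG, the core of PAC, to AAAATTT, the core of RRPE, and to TGACTC, read by Gcn4. The windows lie at chrXI:549148-549447 (plus strand), chrXIV:653087-653386 (plus strand), chrVI:146831-147130 (plus strand), chrVII:1021854-1022153 (minus strand), chrVIII:143696-143995 (plus strand) and chrXV:649003-649302 (plus strand), in the order printed. The far end of the window holds 104 bases of the neighbouring gene SPB4 for DEG1, 17 bases of YNR014W for SMM1 and 5 bases of RPS28A for GLN4.
TRM2: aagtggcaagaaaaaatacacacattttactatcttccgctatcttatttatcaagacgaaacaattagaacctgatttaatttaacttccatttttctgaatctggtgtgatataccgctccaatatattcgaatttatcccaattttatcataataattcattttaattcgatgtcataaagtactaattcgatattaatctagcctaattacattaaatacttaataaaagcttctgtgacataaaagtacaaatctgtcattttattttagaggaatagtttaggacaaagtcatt
SMM1: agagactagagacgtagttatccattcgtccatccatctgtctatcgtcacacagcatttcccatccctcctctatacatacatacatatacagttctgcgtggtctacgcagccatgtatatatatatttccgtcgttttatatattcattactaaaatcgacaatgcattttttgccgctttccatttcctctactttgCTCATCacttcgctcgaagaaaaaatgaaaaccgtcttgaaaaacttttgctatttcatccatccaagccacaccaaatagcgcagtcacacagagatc
DEG1: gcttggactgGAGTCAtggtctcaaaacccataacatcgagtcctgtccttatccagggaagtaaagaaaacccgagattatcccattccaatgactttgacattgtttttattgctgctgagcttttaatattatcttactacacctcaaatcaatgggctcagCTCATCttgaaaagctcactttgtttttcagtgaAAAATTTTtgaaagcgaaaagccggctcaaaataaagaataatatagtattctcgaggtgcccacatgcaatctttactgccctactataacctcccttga
MES1: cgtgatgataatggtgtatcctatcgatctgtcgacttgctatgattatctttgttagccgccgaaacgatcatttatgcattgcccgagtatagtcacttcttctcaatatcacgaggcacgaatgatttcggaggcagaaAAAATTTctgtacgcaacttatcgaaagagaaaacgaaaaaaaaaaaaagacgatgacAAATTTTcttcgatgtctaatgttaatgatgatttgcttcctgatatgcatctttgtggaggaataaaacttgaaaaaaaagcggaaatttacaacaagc
YHR020W: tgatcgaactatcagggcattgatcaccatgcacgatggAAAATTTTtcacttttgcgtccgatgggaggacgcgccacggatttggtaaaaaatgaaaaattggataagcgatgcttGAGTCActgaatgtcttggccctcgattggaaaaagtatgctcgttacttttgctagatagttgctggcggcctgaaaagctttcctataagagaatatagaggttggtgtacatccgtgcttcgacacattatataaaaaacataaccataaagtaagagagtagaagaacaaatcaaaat
GLN4: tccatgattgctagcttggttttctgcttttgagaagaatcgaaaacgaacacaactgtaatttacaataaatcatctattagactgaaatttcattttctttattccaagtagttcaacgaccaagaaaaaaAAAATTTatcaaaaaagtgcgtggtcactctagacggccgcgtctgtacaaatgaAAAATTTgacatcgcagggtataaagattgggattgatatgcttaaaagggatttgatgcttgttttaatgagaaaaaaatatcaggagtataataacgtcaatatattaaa
SMM1 and DEG1 carry a PAC match, and MES1, YHR020W and GLN4 carry RRPE matches, as does DEG1. YHR020W also holds a Gcn4 match, and the Gcn4 match of DEG1, 284 bases before the start, lies in the part of the window that belongs to SPB4. TRM2 holds none of the 3 in this window.

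The libraries have to be described before the results. Each library held between 1002573 and 1248710 reads, recovered as whole numbers from the deposited values. Reads of LTV1 (YKL143W; in R64 on chromosome XI, 176781 to 178172) went against the labels in part. The normalized count of LTV1 reached 680, 3.22 and 6.40 in the libraries labelled ltv1 deletion 1, 2 and 3, against 29.2, 191 and 8.77 in wild type 1, 2 and 3. The library labelled ltv1 deletion 1 thus held the most LTV1 reads and wild type 3 was among the low ones. By limma LTV1 differed by -0.47 ± 1.92 on the log2 scale (SE, n = 3 each; adjusted p = 0.886), and the two-sided exact permutation p was 1, where 0.1 is the smallest possible. How much of the gene was deleted is not known here, and a tag outside the deleted stretch would not tell deletion from wild type. Still, the 3 libraries labelled ltv1 deletion, all of strain EDS615, held 647, 3 and 7 reads of LTV1. The cause of this difference within 1 strain was not tested. Every direction below therefore rests on the labels, and ltv1 deletion and wild type name the libraries so labelled. Wild type 1 stood apart in another way, with 5.66% of its reads from the glycolytic gene TDH3, against 1.33% to 2.88% in the other 5 libraries, and its part in the results was not tested beyond leaving it out. Genes specific to a or α mating type, which a/α diploid cells repress, were in part present. The pheromone genes MFA1, MFA2, MF(ALPHA)1 and MF(ALPHA)2 each had at most 2.92 normalized counts in any library. The a-specific STE2 had 30.5, 17.2 and 16.4 in the ltv1 deletion libraries, against 34.0, 19.8 and 16.6 in wild type, and STE6 lay between 23.1 and 40.6 over the 6 libraries. The 6 listed a genes summed to 50.3 to 61.0 in ltv1 deletion, against 50.7 to 77.7 in wild type, and the 4 α genes to 14.6 to 15 in ltv1 deletion, against 9.37 to 26.2 in wild type. The 10 listed haploid genes summed to 71.3 to 107 normalized counts in the ltv1 deletion libraries, against 120 to 193 in wild type, and their part in the results below was not tested.

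With all 6 libraries, 16 of 30 tRNA-modifying enzymes rose in ltv1 deletion and 0 fell, with a median log2 fold change of 1.19. Of 21 synthetases 3 rose and 0 fell, with a median of 0.36. Over all 5663 genes tested the median was -0.02, and 8.88% of genes rose and 6.98% fell. Of 29 tRNA modification genes outside the chosen 30, 5 rose (17.2%), with a median of 0.61. TRM1, TRM2 and TRM11, all tRNA methyltransferase genes, stood highest, with group means 6.44, 4.31 and 4.35 times those of wild type. The test was limma on log2(value + 1), adjusted over all genes tested at a threshold of 0.05. All 51 members passed the filter of a mean of at least 5 normalized counts. At an unadjusted p under 0.05, 24 modifying enzymes and 7 synthetases were higher and 0 of either were lower, where 17.8% of all genes were higher and 16.9% lower. Both edgeR and DESeq2 on recovered reads also called 0 members lower. With edgeR 18 modifying enzymes and 3 synthetases rose, where 10.5% of all genes rose and 9.25% fell. The difference between the groups of genes was not tested. Each value is a share of its library, so a change in total messenger RNA per cell cannot be told apart from a change of these genes.

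**Figure D1:**
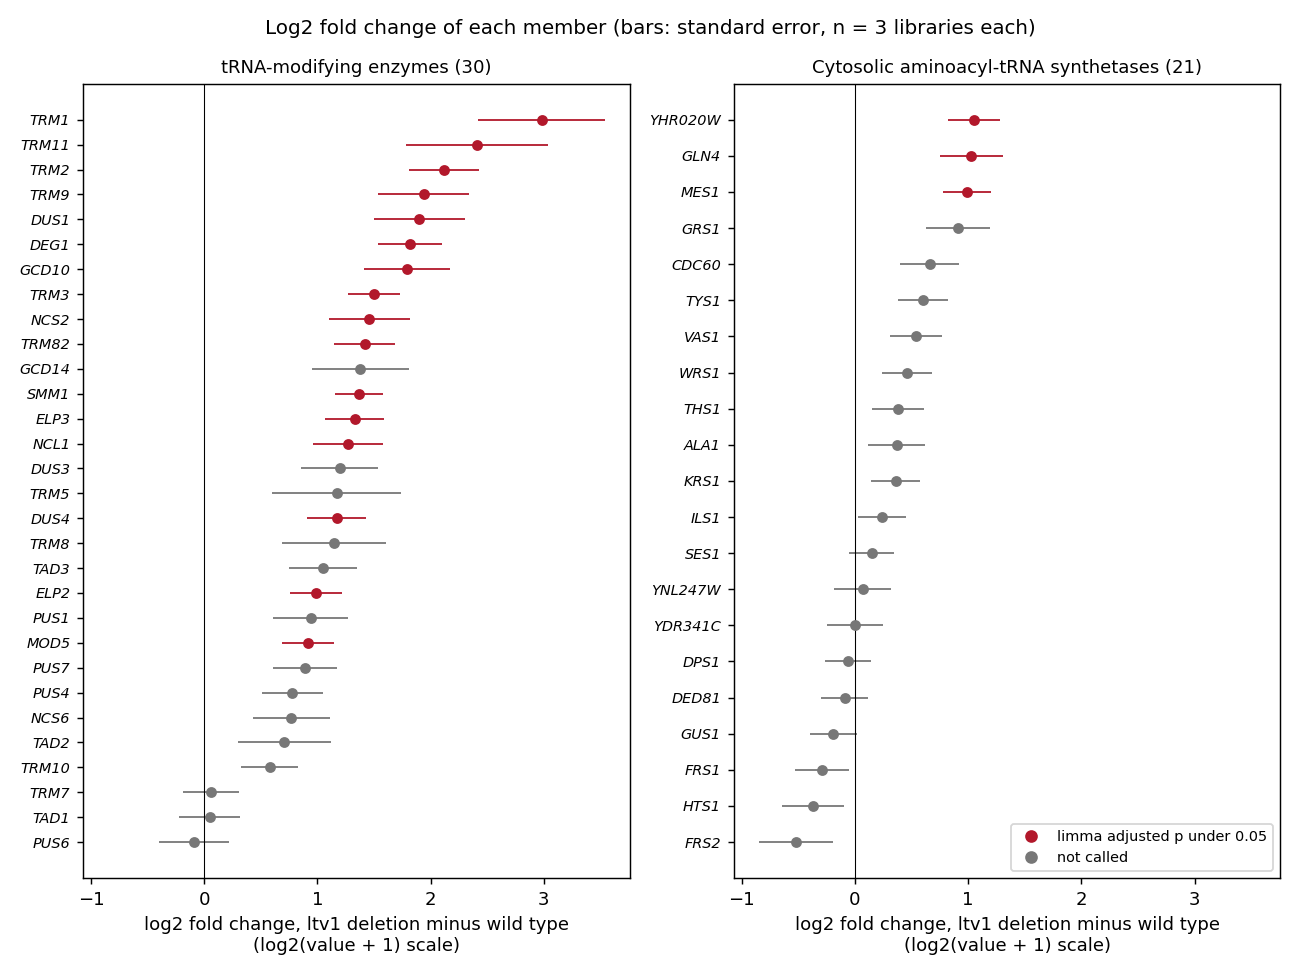
Log2 fold change of each gene (horizontal axis, difference of log2(value + 1), ltv1 deletion minus wild type) with its standard error, for the 30 modifying enzymes (left) and the 21 synthetases (right); red marks a limma adjusted p under 0.05. The modifying enzymes run from -0.09 (PUS6) to 2.98 (TRM1), with 29 of 30 above 0, and the synthetases from -0.52 (FRS2) to 1.05 (YHR020W), with 14 of 21 above 0.

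The libraries counted in the test decided how many genes passed. With the library labelled ltv1 deletion 1 left out, 4 modifying enzymes and 0 synthetases rose (1.77% of all genes rose). With ltv1 deletion 2 left out the numbers were 4 and 0 (1.75% of all genes). With ltv1 deletion 3 left out both were 0 (0.177% of all genes). They were 10 and 1 without wild type 1 (6.64% of all genes), 18 and 5 without wild type 2 (9.36%), and 10 and 1 without wild type 3 (5.86%). In both fits with 4 calls these were TRM2, TRM3, DEG1 and SMM1. With the libraries labelled wild type 3 and ltv1 deletion 1 both left out, whose LTV1 levels were out of place, limma called 0 of either group (0.212% of all genes rose). In that fit 22 modifying enzymes and 3 synthetases were higher at an unadjusted p under 0.05, as were 13.2% of all genes. At that unadjusted level 21 modifying enzymes and 4 synthetases were higher without the library labelled ltv1 deletion 1, where 14.3% of all genes were. Without ltv1 deletion 2 the numbers were 21 and 4 (14.4% of all genes), and without ltv1 deletion 3 they were 22 and 4 (13.2%). The synthetases, at 4 of 21, were near these shares of all genes. The median of the modifying enzymes stayed between 1.00 and 1.36 in these 7 fits, lowest without wild type 1. The median of the synthetases lay between 0.14 and 0.37, lowest without wild type 3 and ltv1 deletion 1.

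**Figure D2:**
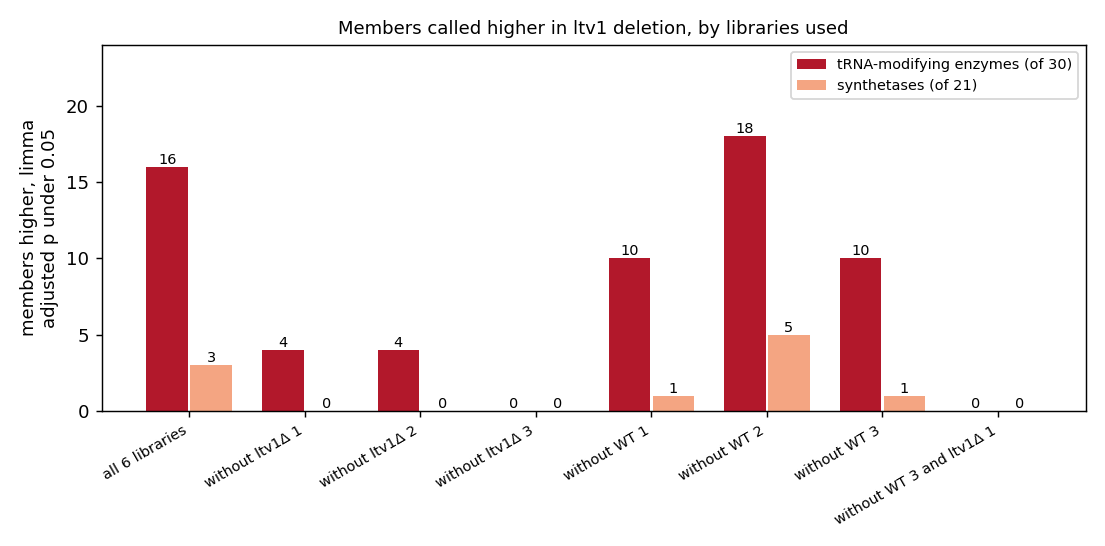
Number of modifying enzymes (of 30) and synthetases (of 21) with a limma adjusted p under 0.05 and a higher level in ltv1 deletion (vertical axis), with all 6 libraries and with 1 or 2 libraries left out (horizontal axis). The number of modifying enzymes runs from 0 to 18 and that of synthetases from 0 to 5.

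Wild type 1 had the lowest level of 26 of the 30 modifying enzymes. Relative to each gene's mean over the 6 libraries, the modifying enzymes averaged 0.62, 0.67 and 0.57 on the log2 scale in the libraries labelled ltv1 deletion 1, 2 and 3, against -1.12, -0.32 and -0.41 in wild type 1, 2 and 3. All 3 deletion libraries thus lay above all 3 wild type libraries, and wild type 1 lay farthest below. The synthetases averaged 0.21, 0.17 and 0.07 in the libraries labelled ltv1 deletion 1, 2 and 3, against -0.14, -0.08 and -0.22 in wild type 1, 2 and 3. Gene by gene, the 3 deletion values lay above the 3 wild type values in 23 of 30 modifying enzymes and 11 of 21 synthetases, where 21.6% of all genes did. They lay below in 0 modifying enzymes and in 2 synthetases, GUS1 and HTS1, where 20.0% of all genes did.

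**Figure D3:**
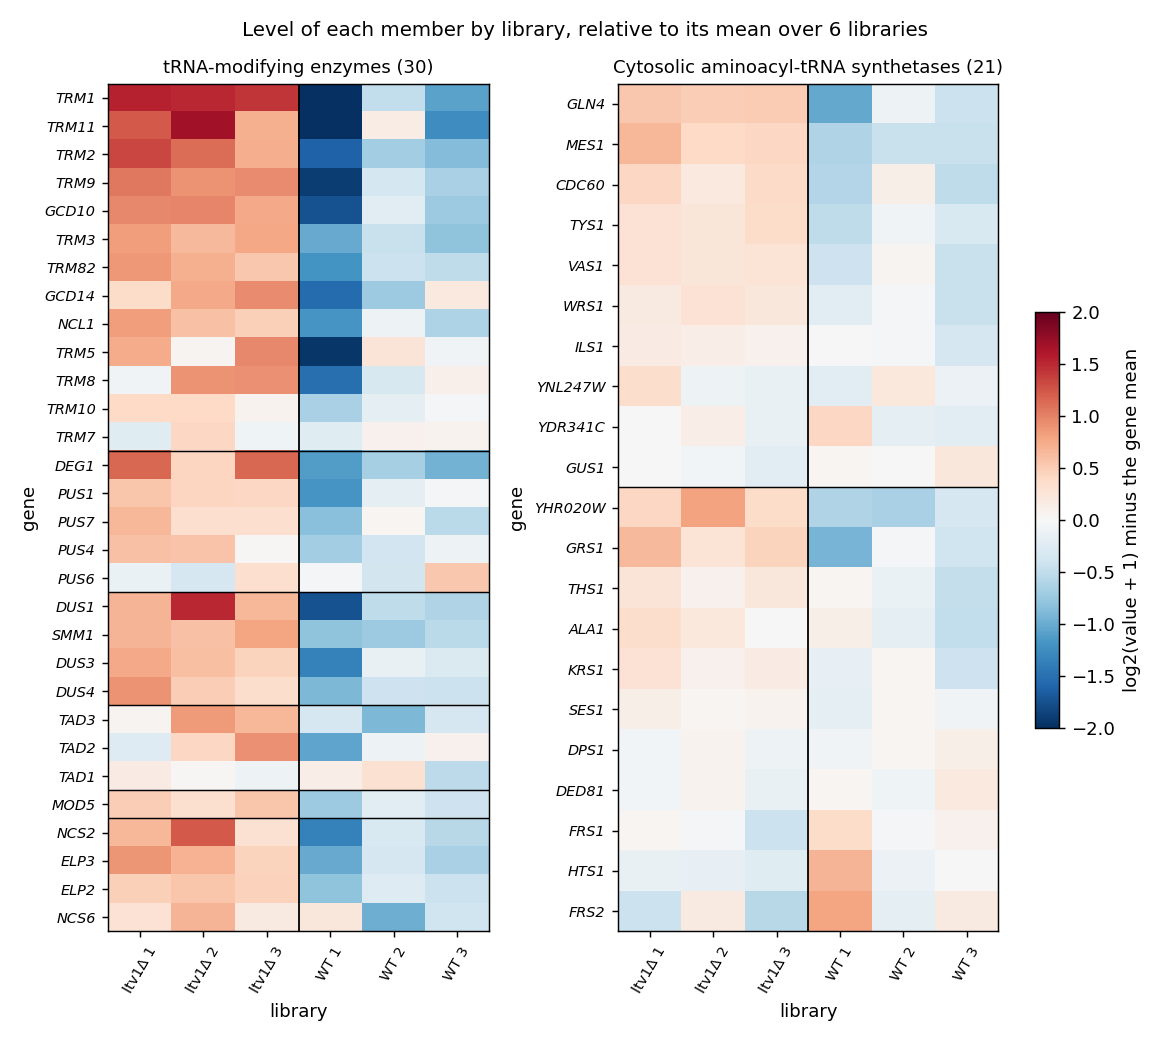
Level of each gene (rows) in each library (columns, ltv1 deletion left of wild type) as log2(value + 1) minus the gene's mean over 6 libraries, with colours ending at -2 and 2. Black lines part the kinds of modifying enzyme (methyltransferases, pseudouridine synthases, dihydrouridine synthases, adenosine deaminases, MOD5, wobble uridine enzymes) and synthetase class I from class II. The modifying enzymes are darkest blue in wild type 1, where 26 of 30 were lowest.

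Of 13 methyltransferase genes 8 rose, where 8.88% of all genes did. They were TRM1, TRM2, TRM3, TRM9, TRM11, TRM82, NCL1 and GCD10. TRM1 (YDR120C, chromosome IV, 691549 to 693261), which puts 2 methyl groups on a guanosine of the tRNA core, had 630, 616 and 581 normalized counts in the libraries labelled ltv1 deletion 1, 2 and 3, against 28.2, 153 and 102 in wild type 1, 2 and 3. The deletion libraries differed little among themselves, and wild type 1 was far under the other wild type libraries. The log2 fold change of TRM1 was 2.98 ± 0.56 (SE, n = 3 each; limma adjusted p = 0.0196), and was 2.27 with wild type 1 left out. The call of TRM1 ended with each of the 3 deletion libraries left out. TRM2 (YKR056W, chromosome XI, 549448 to 551367), which makes the ribothymidine of the T loop, had 344, 297 and 226 in the deletion libraries, against 43.7, 83.3 and 74.1 in wild type. The groups did not overlap, and the log2 fold change of 2.12 ± 0.31 (SE, n = 3 each; limma adjusted p = 0.0127) lay between 1.84 and 2.30 in the 20 alternatives run. Its call ended without ltv1 deletion 3 and without wild type 3 and ltv1 deletion 1 together. In the authors' deposited DESeq2 result TRM2 was the 1 member with an adjusted p under 0.05 (0.0315), where 86 of all 7126 rows were. The settings of that test are not known here, and its p-values are unlike those of limma. For ELP2 it gave a log2 fold change of 0.85 ± 0.24 (SE) with a DESeq2 adjusted p of 0.878. Its number of members under 0.05 therefore cannot be set against the limma calls.

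TRM3, which methylates a ribose in the D loop, had 719, 628 and 684 normalized counts in ltv1 deletion, against 200, 295 and 230 in wild type 1, 2 and 3. Its log2 fold change was 1.50 ± 0.23 (SE, n = 3 each; limma adjusted p = 0.0140), and the groups lay well apart. TRM9, which completes a side chain on the wobble uridine together with Trm112, rose by 1.94 on the log2 scale, and NCL1, which methylates cytosines, by 1.27. NCL1 had the highest counts of the modifying enzymes, with 1022, 857 and 790 in the deletion libraries, against 251, 529 and 371 in wild type. Its call ended with each deletion library left out and without wild type 1 or wild type 3. It also ended without wild type 3 and ltv1 deletion 1 together. With all libraries kept, it ended under quantile normalization, without the filter on low values and with a block for the replicate number. TRM11, a guanosine methyltransferase that also works with Trm112, had 91.5, 125 and 63.1 normalized counts in the deletion libraries, against 5.83, 42.7 and 15.6 in wild type 1, 2 and 3. The wild type 1 value of TRM11 came from 6 reads, and its fold change carried the widest standard error among the genes that rose (2.41 ± 0.63, SE, n = 3 each).

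Partners in 1 enzyme did not always pass together. Trm8 and Trm82 form the methyltransferase that makes 7-methylguanosine. TRM82 rose (log2 fold change 1.42, limma adjusted p = 0.0201), while TRM8 stood at 1.15 and missed the threshold (adjusted p = 0.126). TRM8 had 77.8, 153 and 155 normalized counts in the libraries labelled ltv1 deletion 1, 2 and 3, against 28.2, 65.6 and 87.7 in wild type 1, 2 and 3, so that its groups overlapped. Gcd10 and Gcd14 together methylate an adenosine of the T loop, which the initiator methionine tRNA needs for its stability. GCD10 rose by 1.79, and GCD14 stood at 1.38 (adjusted p = 0.0675). The other methyltransferase genes that did not pass were TRM5, TRM7 and TRM10. TRM5 makes the methylguanosine beside the anticodon and stood at 1.17 with a 95% interval from -0.15 to 2.50, its wild type 1 value resting on 2 reads. TRM7 methylates riboses of the anticodon loop and stood at 0.06 (95% interval -0.54 to 0.65). TRM10, which methylates a guanosine of the tRNA core, stood at 0.58 (adjusted p = 0.144).

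**Figure D4:**
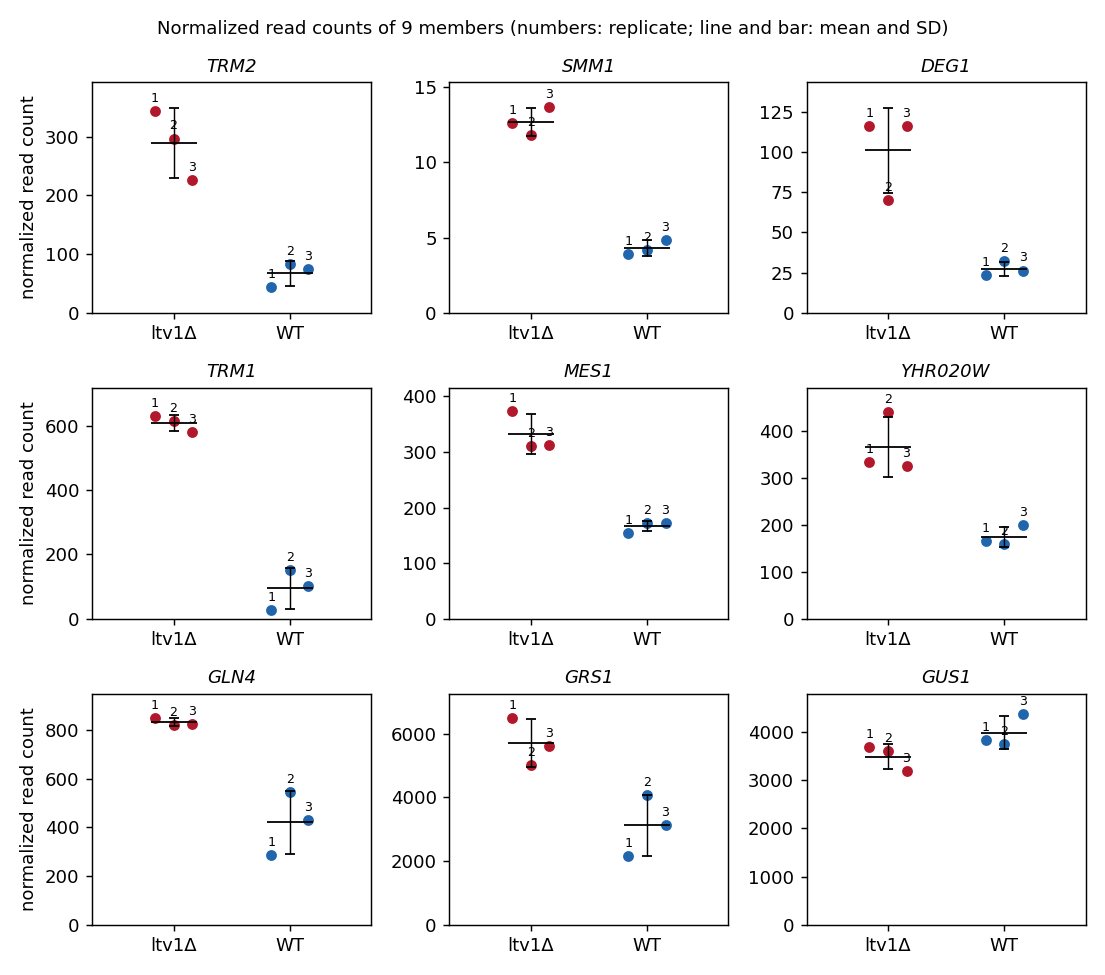
Normalized read counts (vertical axis, from 0) of 9 genes in the 3 ltv1 deletion (red, left) and 3 wild type libraries (blue, right), numbered by replicate, with the mean and SD of each group. TRM1 averaged 609 in ltv1 deletion and 94.5 in wild type, MES1 332 and 167, and GUS1 3494 and 3986.

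Of 5 pseudouridine synthase genes 1 rose, where 8.88% of all genes did. DEG1, which acts in the anticodon stem and loop, had 116, 69.9 and 116 normalized counts in the libraries labelled ltv1 deletion 1, 2 and 3, against 23.3, 32.3 and 26.3 in wild type 1, 2 and 3. The group means differed 3.68-fold, and the log2 fold change was 1.82 ± 0.28 (SE, n = 3 each; limma adjusted p = 0.0137). PUS1 and PUS7, whose products modify many RNAs, and PUS4, which acts in the T loop, were all close to the threshold. PUS1, PUS4 and PUS7 stood at 0.94, 0.78 and 0.89, with adjusted p between 0.0694 and 0.0874. Their deletion values were all above their wild type values. PUS6 had 6.31, 5.37 and 9.14 normalized counts in ltv1 deletion, against 6.80, 5.21 and 10.7 in wild type, from 5 to 11 reads a library, too few to show a moderate difference.

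Of 4 dihydrouridine synthase genes, whose products act in the D loop and the variable loop, 3 rose, beside 8.88% of all genes. DUS1 had 25.2, 45.1 and 24.7 normalized counts in the deletion libraries, against 3.89, 10.4 and 9.75 in wild type 1, 2 and 3, a log2 fold change of 1.90. DUS4 and SMM1 stood at 1.17 and 1.37. SMM1 was even within groups, with 12.6, 11.8 and 13.7 in ltv1 deletion and 3.89, 4.17 and 4.87 in wild type. Those wild type values came from 4, 4 and 5 reads, close to the floor of 3 reads, and the deletion values from 12, 11 and 15. With so few reads, even values do not show that the level of SMM1 was measured closely. Its log2 fold change lay between 0.93 and 1.56 in the 19 alternatives run. The call of SMM1 did not hold in DESeq2 on recovered reads. DUS3 stood at 1.20 and just missed the threshold in limma (adjusted p = 0.0532). It passed in edgeR on recovered reads, as did TAD3.

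Wobble and anticodon-loop enzymes rose in part, among them 3 of 4 wobble uridine genes, where 8.88% of all genes rose. ELP2 and ELP3 encode subunits of Elongator, which starts the side chain of the wobble uridine, and stood at 0.99 and 1.33 (limma adjusted p = 0.0286 and 0.0201). ELP2 had 264, 279 and 263 normalized counts in ltv1 deletion, against 109, 160 and 141 in wild type 1, 2 and 3. Ncs2 and Ncs6 act together to put sulfur on the same uridine. NCS2 rose by 1.46, and NCS6 stood at 0.77 with overlapping groups (adjusted p = 0.152). MOD5, which adds an isopentenyl group beside the anticodon, rose by 0.92, with 135, 120 and 141 in ltv1 deletion against 57.3, 81.2 and 71.1 in wild type. None of the 3 deaminase genes, TAD1, TAD2 and TAD3, passed in limma. At an unadjusted p under 0.05, 1 of them was higher, where 17.8% of all genes were. Tad2 and Tad3 form the enzyme that makes the wobble inosine. TAD3 stood at 1.05 (adjusted p = 0.0507) and TAD2 at 0.71. TAD3 overlaps the annotated gene YLR315W, so reads of the pair may have been mixed. It was the 1 member that overlaps an annotated gene. TAD1, whose product makes the inosine beside the anticodon of alanine tRNA, stood at 0.05 (95% interval -0.58 to 0.69).

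Of 10 class I synthetases 2 rose (20%), GLN4 and MES1, and of 11 of class II 1 rose (9.09%), YHR020W. Over all genes tested 8.88% rose, so class II lay near that share. MES1 (YGR264C, chromosome VII, 1019598 to 1021853), the methionyl-tRNA synthetase that also charges the initiator tRNA, had 373, 311 and 312 normalized counts in ltv1 deletion, against 155, 173 and 172 in wild type. The groups were tight and far apart (log2 fold change 0.99 ± 0.21, SE, n = 3 each; limma adjusted p = 0.0227). YHR020W (chromosome VIII, 143996 to 146062), the prolyl enzyme, had 334, 441 and 325 in ltv1 deletion, against 166, 160 and 200 in wild type (1.05 ± 0.23; limma adjusted p = 0.0244). GLN4 (YOR168W, chromosome XV, 649303 to 651732), the glutaminyl enzyme, had 850, 821 and 826 in ltv1 deletion, against 287, 545 and 431 in wild type 1, 2 and 3. Its fold change of 1.03 was close to the threshold (limma adjusted p = 0.0439), and its call was lost in the same fits as that of NCL1. The calls of MES1 and YHR020W ended with each deletion library left out and with the replicate block. Both also ended without wild type 3 and ltv1 deletion 1 together. MES1 further lost its call without wild type 3, and YHR020W without wild type 1.

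The other 18 synthetases did not pass. GRS1, the glycyl enzyme of cytosol and mitochondria, came nearest, with 6486, 5010 and 5620 normalized counts in ltv1 deletion against 2161, 4067 and 3129 in wild type (log2 fold change 0.91, limma adjusted p = 0.0680). CDC60 (leucyl), TYS1 (tyrosyl) and VAS1 (valyl) stood at 0.66, 0.60 and 0.54, each with a 95% interval above 0 before adjustment over all genes. WRS1 (tryptophanyl), THS1 (threonyl), ALA1 (alanyl), KRS1 (lysyl) and ILS1 (isoleucyl) lay between 0.24 and 0.46. SES1 (seryl) stood at 0.15 with an interval from -0.32 to 0.62, which does not reach a 2-fold change. YNL247W (cysteinyl), YDR341C (arginyl), DPS1 (aspartyl) and DED81 (asparaginyl) lay between -0.09 and 0.07, and their intervals together ran from -0.59 to 0.65.

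Some synthetases had negative fold changes that did not pass. GUS1, the glutamyl enzyme, had 3685, 3604 and 3192 normalized counts in ltv1 deletion, against 3836, 3745 and 4376 in wild type, a log2 fold change of -0.19 (95% interval -0.67 to 0.29). Gus1 and Mes1 are held together in yeast by the cofactor Arc1. ARC1 stood at 0.01 (803, 707 and 739 in ltv1 deletion, against 681, 782 and 780 in wild type), so that within this trio MES1 alone passed. Both subunits of the phenylalanyl enzyme were negative, FRS1 at -0.29 and FRS2 at -0.52. HTS1, the histidyl enzyme of cytosol and mitochondria, stood at -0.37. HTS1 and FRS2 were highest in wild type 1, with 1072 and 533 normalized counts, against 615 and 662 for HTS1 and 271 and 349 for FRS2 in wild type 2 and 3.

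Other genes of the tRNA pathway were read from lists named beside the members. Over all genes tested 8.88% rose and 6.98% fell. Of 14 synthetases made for mitochondria alone 0 rose and 2 fell, with a median log2 fold change of -0.49 and 12 of 14 below 0. At an unadjusted p under 0.05, 0 of them were higher and 5 lower, beside the 17.8% and 16.9% of all genes. MST1, the mitochondrial threonyl enzyme, had 12.6, 7.52 and 10.1 normalized counts in ltv1 deletion, against 30.1, 26.0 and 24.4 in wild type (log2 fold change -1.35, limma adjusted p = 0.0188). SLM5, the mitochondrial asparaginyl enzyme, stood at -1.11. Of 29 other tRNA modification genes tested 5 rose and 0 fell, with a median of 0.61, and at an unadjusted p under 0.05 12 were higher and 1 lower, beside the same 17.8% and 16.9%. Among them TYW1, which acts in wybutosine synthesis, and KRE33, the acetyltransferase of ribosomal and transfer RNA, stood at 1.98 and 1.96. TRM13 and TRM44, which methylate riboses, stood at 1.21 and 1.12. The fifth, TRM732, whose product works with Trm7, stood at 0.79 and is named after its values were seen. Of 15 partners of Elongator and of thiolation 2 rose, DPH3 at 2.02, which overlaps the annotated gene YBL071C, and the Sit4-associated SAP185 at 2.51, beside 8.88% of all genes. UBA4 and NFS1, both of sulfur transfer, stood at -0.86 and -1.17 with every deletion value under every wild type value. Both missed the threshold in limma and were called lower by edgeR. KTI12, a partner of Elongator, stood at 0.77 with every deletion value above every wild type value. It too missed the threshold in limma, and was called higher by edgeR. UBA4, NFS1 and KTI12 are named after their values were seen. The other Elongator subunit genes, IKI3, IKI1, ELP4 and ELP6, did not pass. Of 12 genes of tRNA end processing, splicing and export tested 2 rose (16.7%), beside 8.88% of all genes. They were the La protein gene LHP1, at 1.19, and the tRNA ligase gene TRL1, at 1.15. GRS2, the paralog of GRS1, stood at -0.47 and did not pass.

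The motifs in the promoters of the 2 groups were counted, with no test. A PAC match was present in the 300-base window of 21 of 30 modifying enzymes (70.0%) and 5 of 21 synthetases (23.8%), against 19.1% of 6001 protein-coding genes. An RRPE match was present in 17 of 30 modifying enzymes (56.7%) and 18 of 21 synthetases (85.7%), against 24.4% of all. The Gcn4 letters were present in 1 modifying enzyme, DEG1, where they lie within the neighbouring gene SPB4, and in 9 synthetases (42.9%), against 7.77% of all. The windows of DED81 and YHR020W overlap, and the same Gcn4 and RRPE matches are counted for both genes. Among the modifying enzymes the genes that rose and those that did not pass held PAC in 11 of 16 (68.8%) and 10 of 14 (71.4%). RRPE was present in 7 of 16 (43.8%) that rose and 10 of 14 (71.4%) that did not pass. None of the 3 synthetases that rose held a PAC match. A match is a string of letters, not a measured binding site, and because AAAATTT and its reverse overlap, a run of 4 A and 4 T counts as 2 RRPE matches in 1 place.

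**Figure D5:**
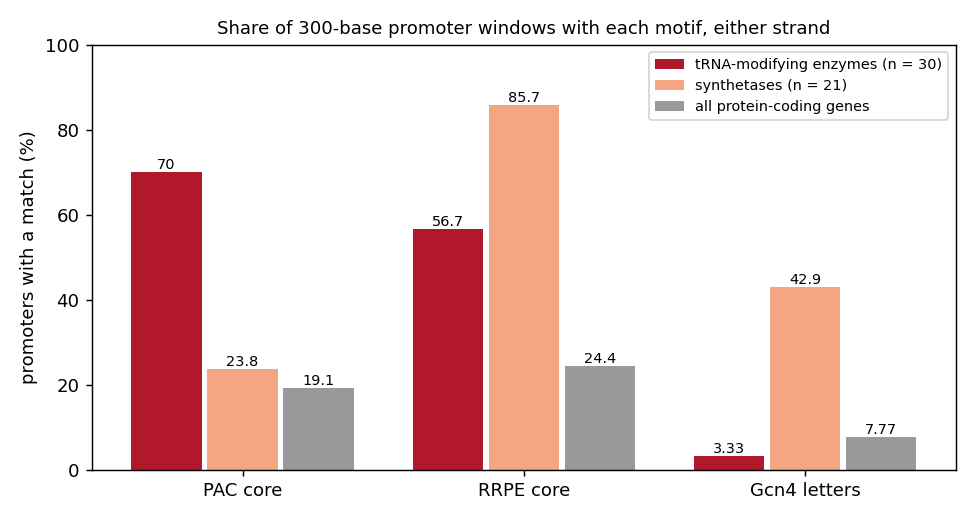
Share of 300-base promoter windows (vertical axis, percent) with at least 1 match on either strand to each motif, for the 30 modifying enzymes, the 21 synthetases and all protein-coding genes. PAC is present in 70.0% of the modifying enzymes and 23.8% of the synthetases, RRPE in 56.7% and 85.7%, and the Gcn4 letters in 3.33% and 42.9%.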

How the data were processed

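RNA was extracted with hot phenol and made into 3′ tag libraries with inline molecular identifiers, read as single ends of 84 to 90 cycles, per the labels' protocols. The submitters' processing notes name FastQC, Trim Galore, STAR, Salmon, DESeq2 1.34.0, R 4.1.3 and build R64. How identifiers, strand and filters were handled is not stated there. The authors deposited a normalized signal per gene and library. Dividing each library by its smallest step gave whole read counts for 100% of its values, to within 0.01, as counts scaled by a size factor would. A floor of 3 reads is worth 2.74 to 3.22 normalized counts and covers counting error only. The authors also deposited log2 fold changes, p-values and adjusted p-values, of which 52.1% of the p-values were exactly 1. In 94 rows their mean was above 0 with all 6 libraries at 0, so that mean was not made from these 6 libraries alone.

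The test was limma 3.58.1 in R 4.3.3 on log2(value + 1), for genes with a mean of at least 5, without trend or robust options, with Benjamini-Hochberg adjustment over 5663 genes. This scale understates changes of low genes. Alternatives were other scalings, filters, pseudocounts (0.5 and 5), thresholds, trend and robust options, edgeR 4.0.16, DESeq2 1.42.0 and voom on recovered reads, a block for the replicate number, and fits without some libraries. The procedure was also run on simulated counts with known labels, and the outcome is not used here. Such a run cannot judge libraries whose labels are in doubt. Members, lists, motifs and the pair of libraries left out together were chosen with earlier results of these data known. All members may be named. Of other lists up to 4 genes past the threshold were named by smallest adjusted p, besides ARC1, GRS2 and genes named for belonging to a complex. Where a gene was named after its values were seen, the text says so. All 51 members matched a locus tag of the RefSeq R64 annotation, 1-based coordinates. Motifs were searched in the 300 bases before each annotated start codon.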

Additional observations from a re-analysis of the deposited data

How the results depend on the processing

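None of the 19 genes called higher changed sign in the alternatives run, 20 for each gene but 19 for DUS1, DUS4, SMM1 and NCS2, which a minimum mean of 50 removed. With all libraries kept and no block, calls ended for GLN4 and NCL1 under quantile normalization, for GLN4, NCL1, TRM11, MOD5 and NCS2 without the filter on low values, and for SMM1 in DESeq2. Without leaving out libraries, the number of modifying enzymes that rose stayed within 1.5 times 16, other than 9 with the replicate block. With the replicate block 279 genes rose and 151 fell over all genes, and 0 synthetases rose. Whether the numbers pair the libraries could not be decided with 3 libraries a group. The deviations of same-numbered libraries from their group means correlated at -0.105, -0.198 and 0.0723. Those of libraries with unlike numbers correlated at -0.171 to 0.278. At an adjusted p of 0.10, 805 genes rose and 727 fell, 5 synthetases among those that rose. With quantile normalization the synthetase median was 0.25. Without both wild type 3 and ltv1 deletion 1, 12 genes rose and 4 fell, with 0 of either group and a synthetase median of 0.14. With 1 library left out the genes that rose numbered 10 to 530 and those that fell 14 to 447, the modifying enzymes that rose 0 to 18, the synthetases 0 to 5, and the synthetase median was 0.22 to 0.37.

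Members near 0 changed sign, none of them called. YDR341C was 0.00 with TMM scaling, 0.01 with voom and -0.11 to 0.20 with 1 library left out. YNL247W was -0.06 with quantile normalization, -0.12 without both libraries and -0.09 to 0.20 with 1 left out. PUS6 and TAD1 were 0.21 and -0.26 without both libraries, and with 1 left out -0.30 to 0.16 for PUS6, -0.19 to 0.22 for TAD1 and -0.13 to 0.19 for TRM7. LTV1 was 1.59 in edgeR with TMM factors, 1.60 with median-ratio factors, and -2.78 to 0.89 with 1 library left out. The cause of these shifts was not tested. Depth limits SMM1, PUS6, TRM5, DUS1, GCD14 and TRM11, with under 10 reads in at least 1 library each.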

Other observations

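DED81 and YHR020W, the asparaginyl and prolyl synthetase genes, lie back to back on chromosome VIII and are transcribed away from each other. There are 437 bases between their annotated starts. Their promoter windows overlap, and the matches marked for YHR020W also lie in the window of DED81. YHR020W rose, with a mean of 367 ± 64.2 normalized counts in ltv1 deletion and 175 ± 21.3 in wild type (SD, n = 3 each). DED81 averaged 309 ± 23.4 in ltv1 deletion and 330 ± 31.5 in wild type (SD, n = 3 each), a log2 fold change of -0.09 (95% interval -0.58 to 0.39). The difference between the neighbours was not tested, and the pair was noticed after their values were seen.

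Among genes that haploid cells express, NEJ1, a factor of end joining, had 9.46, 10.7 and 15.5 normalized counts in the libraries labelled ltv1 deletion 1, 2 and 3, against 2.92, 4.17 and 0 in wild type 1, 2 and 3 (log2 fold change 2.22, limma adjusted p = 0.0414). It was the 1 haploid gene of 6 tested that passed in limma, and its wild type values were at or near the floor of 3 reads. STE4, the listed haploid gene with the most counts, had 42.0, 49.4 and 25.6 in ltv1 deletion, against 124, 59.4 and 87.7 in wild type, a log2 fold change of -1.18 (limma adjusted p = 0.0618). It was called lower by edgeR (adjusted p = 0.0311), and over the 6 genes 3 fold changes were above 0 and 3 below. By the authors' deposited table, 29 of the 30 modifying enzymes and 14 of the 21 synthetases had a log2 fold change above 0, with medians of 0.72 and 0.18, against 0.00 over all rows.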
